A study of Bos taurus with 18 samples.

Results

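The genes of mitotic cell division were followed through 6 groups of bovine in vitro blastocysts. The set was a list of 40 gene symbols, and a gene was counted as measured where the probe-to-gene table of the array carried its symbol. That was so for 38 of the 40, out of 15229 gene symbols on the array, while CENPA (the histone H3 variant of the centromere) and TTK (a kinase of the spindle checkpoint) are not analysed here. The 38 genes had 56 probes, of which 52 passed the filter on dim probes, and every one of the 38 kept at least 1 probe.

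RNA was measured on 18 Agilent EmbryoGENE arrays, 3 for each group, with 1 colour (Cy3). In the group day6 the blastocoel, the fluid cavity that defines a blastocyst, had formed by day 6 after insemination and the embryos were collected then; in day8 it had formed by day 8. In day6+2 the early embryos of day 6 were kept for 2 further days. The arrays of day6+1, day7 and day7+1 carry only the collection code, which was read in the same way: a cavity at day 6 or 7 and, after the plus sign, the extra days of culture. For day6, day6+2 and day8 the labels describe oocytes matured and fertilised in vitro with semen of a single bull, no genetic change or drug, and culture in drops of 25 embryos on Vero cells, an African green monkey kidney line. The number of embryos behind each array is not given in the sources used here, and neither is the sex of the embryos. The labels call the 3 arrays of a group biological replicates but do not say what was replicated, and the p-values therefore rest on the spread between samples, which may be technical.

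A cell enters mitosis when cyclin-dependent kinase 1, bound to cyclin B, outweighs the kinases that hold it back. Microtubules of the spindle then attach to the kinetochores, and a checkpoint delays anaphase until every chromosome is attached. The anaphase-promoting complex afterwards marks securin and the cyclins for destruction, separase cuts cohesin, the sister chromatids part, and the midzone of the spindle places the furrow that divides the cell. The transcripts of most of these genes are known to accumulate towards the end of the cell cycle, and in early cattle embryos a share of them is inherited from the oocyte.

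The median spot of an array had a signal of 157 to 302 intensity units, beside a background of 14 to 21, and 72.0% to 81.1% of probes lay above the negative controls. Levels are given in log2 intensity after background correction and quantile normalisation, and a difference of 1 on this scale is a doubling. The tests were those of limma, a linear model with moderated variances, adjusted by the Benjamini-Hochberg method over all 34265 features (14543 genes and 19722 probes with no symbol). A gene was called changed at an adjusted p under 0.05. Defining markers of the blastocyst were present: all 11 trophectoderm markers (the outer layer) lay above background on 18 of 18 arrays, as did 6 of 7 measured markers of the inner cell mass and 4 of 5 of the hypoblast. The trophectoderm list was lowest in day6. Its mean level was 11.22 to 11.61 on the day6 arrays and 11.90 to 12.39 on the other 15. In day6+2 against day6, 4 of the 11 rose and 0 fell, where 2.31% of all features rose and 1.28% fell. The inner cell mass list had mean levels of 10.20 to 10.41 on day6 arrays and 10.05 to 10.69 elsewhere, with 2 of its 7 genes higher and 4 lower in day6+2. The hypoblast list was at 11.03 to 11.49 in day8 and 11.47 to 12.32 in the other groups. Markers of cumulus and granulosa cells had mean levels of 7.53 to 7.98, with 3 of 6 measured above background on every array. Those of fibroblast and kidney epithelium had mean levels of 7.88 to 8.18, with 4 of 8 measured above background on every array. The part of any of these cell types in the results below was not tested. In such bulk samples fewer cells in division and less RNA per dividing cell cannot be told apart.

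The probes of the mitotic genes were bright in these embryos. Their mean level was 10.91 at the median against 7.59 for all features, and 36 of the 38 were above background on every array. BUB3, a checkpoint protein that also docks on kinetochores, was the brightest at 14.80 and PRC1, which bundles the microtubules of the midzone, was at 14.47. The dimmest were ANLN (anillin, which organises the contractile ring) at 7.04, above background on 10 of 18 arrays, and NEK2 (a kinase that separates the centrosomes) at 7.47. Levels of different genes come from different probes and are not ordered here by amount of RNA. The replicate spread was ordinary: the standard deviation within groups was 0.26 at the median of the 38, against 0.27 for all features.

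Day6 stood highest for most of the set. Of the 38 genes, 24 had their highest group mean in day6, where 22.2% of all features did, and 0 had their lowest there, where 18.2% of all features did. The median gene lay 0.23 above its own mean over the 18 arrays in day6, and between 0.02 and 0.08 below it in each of the other 5 groups. By array, the median deviation of the set was 0.23, 0.34 and 0.22 on the 3 day6 arrays and ran from -0.22 to 0.09 on the other 15, so that no other array reached the day6 range. The count of 24 became 17 when each array was centred on its median in place of quantile normalisation. This ranking was added after the data were seen.

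**Figure D1:**
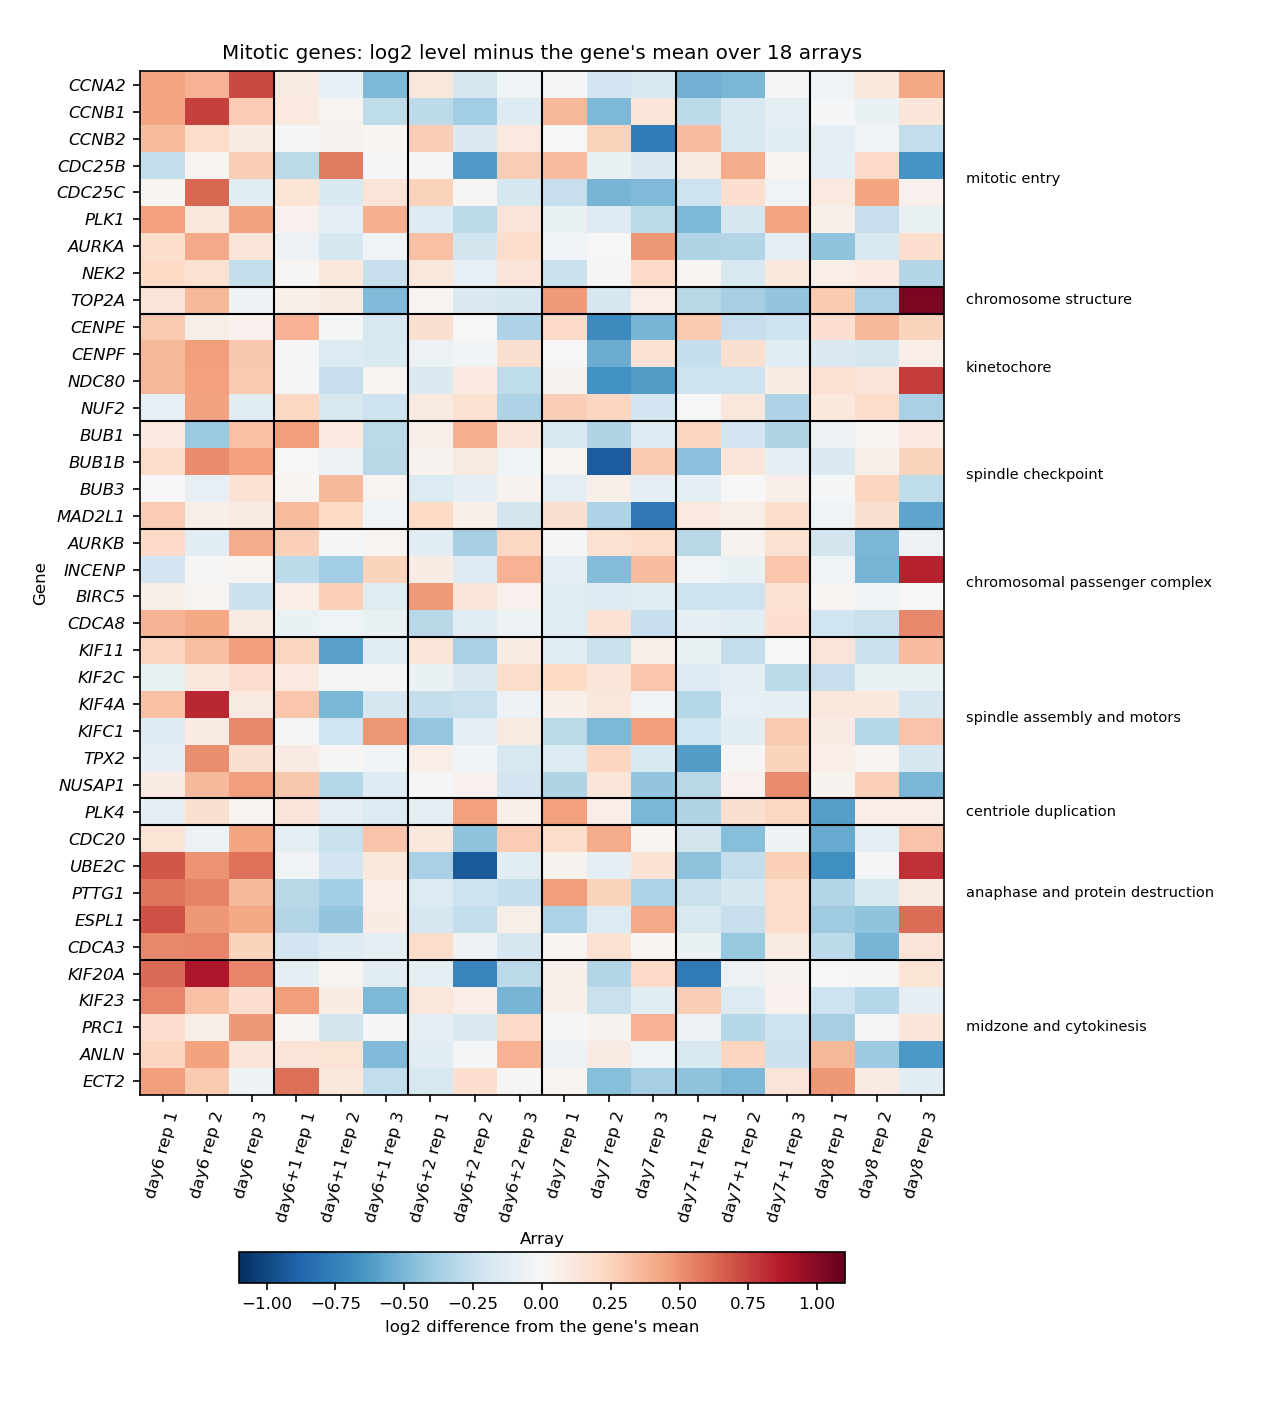
Levels of the 38 measured mitotic genes (rows, ordered by role) on the 18 arrays (columns, 3 for each group), as the log2 difference from each gene's own mean over all arrays. Red is above the gene's mean and blue below it, and the 3 day6 columns at the left are red for most genes, among them KIF20A, UBE2C, CCNB1 and ESPL1.

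**Figure D2:**
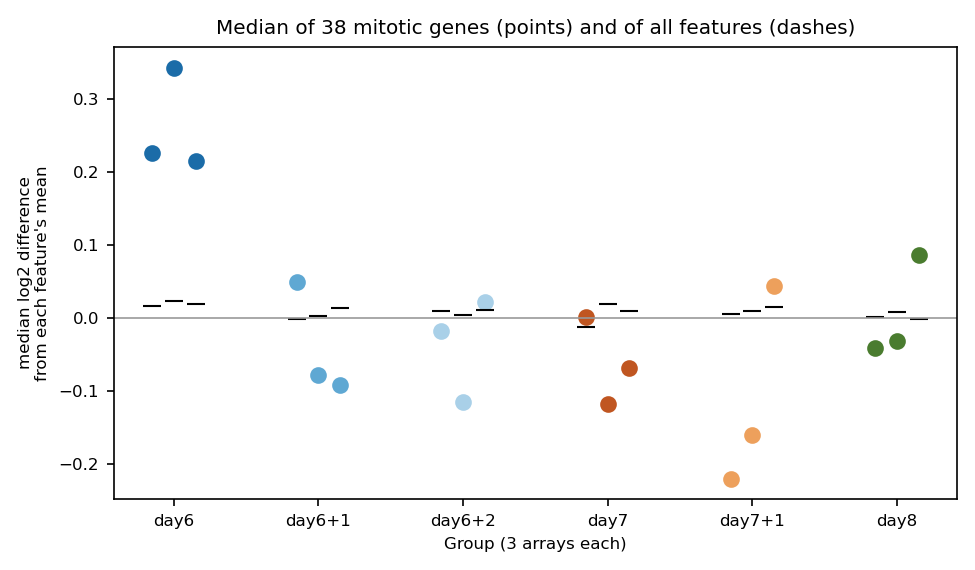
Median log2 difference of the 38 mitotic genes from their own means on each array (points), by group, with the same median over all 34265 features (dashes). The day6 points lie at 0.22 to 0.34 and every other point at 0.09 or below, while the dashes stay close to 0 in all groups.

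Within the embryos that formed their cavity at day 6, extra culture was the comparison in which single genes passed the test. After 2 further days, KIF20A, UBE2C and CCNB1 fell, 3 of 38, and none rose. Over all features 1.28% fell and 2.31% rose by the same rule, so that the set's share of falling genes was larger than the background but rested on 3 genes. Of the 38 genes 33 had a difference below 0, where 52.9% of all features did, and the median difference was -0.25 against -0.02. In 15 genes the 3 day6+2 arrays lay wholly below the 3 day6 arrays, and in 0 wholly above, against 9.09% and 9.03% of all features. The median difference was -0.10, with 24 genes below 0, when each array was centred on its median, against 0.03 for all features. With plain background subtraction it was -0.24, against -0.10 for all features.

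KIF20A, the kinesin that carries the passenger complex to the midzone and is needed for cytokinesis, had levels of 13.89, 14.16 and 13.80 on the day6 arrays. On the day6+2 arrays it was at 13.16, 12.54 and 12.97, all below day6. It fell by 1.06 on the log2 scale (standard error 0.22), a level 2.09 times lower, with an adjusted p of 0.00519 in limma. The levels after 1 extra day were 13.16, 13.29 and 13.15, also below all 3 day6 arrays. Without replicate 2 of day6+2 the difference was -0.89 with an adjusted p of 0.0518 in limma, and it passed the threshold when any of the other 5 arrays compared was left out.

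UBE2C, the ubiquitin-conjugating enzyme that works with the anaphase-promoting complex, read 12.76, 12.58 and 12.68 in day6, the tightest of these groups. In day6+1 it read 12.04, 11.87 and 12.20 and in day6+2 11.72, 11.15 and 11.96, so that all 6 arrays with extra culture lay below the 3 without. It fell by 1.06 over 2 days (standard error 0.28), a level 2.08 times lower, with an adjusted p of 0.0344 in limma. The call depended on single arrays: it held in 1 of 6 fits with 1 array left out, that without replicate 3 of day6+2. The other 5 adjusted p-values in limma were 0.119, 0.0877 and 0.0888 without day6 replicates 1, 2 and 3 and 0.073 and 0.224 without day6+2 replicates 1 and 2. The call was also lost with plain background subtraction (-1.01, adjusted p = 0.0538) and with median centring (-0.87, adjusted p = 0.175).

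CCNB1, cyclin B1, the activating partner of the mitotic kinase, was at 14.03, 14.34 and 13.87 in day6 and at 13.30, 13.21 and 13.45 in day6+2. After 1 extra day it stood between them, at 13.70, 13.62 and 13.31. The groups at either end do not overlap, and CCNB1 fell by 0.76 (standard error 0.20), a level 1.69 times lower, with an adjusted p of 0.0387 in limma. That call too held in 1 of 6 fits with 1 array left out, the one without day6 replicate 3. Without day6 replicates 1 and 2 the adjusted p in limma was 0.0917 and 0.201, and without day6+2 replicates 1, 2 and 3 it was 0.109, 0.163 and 0.0605. It was lost as well with the slide as a fixed block (adjusted p = 0.05), with background subtraction (-0.71, 0.122) and with median centring (-0.56, 0.344).

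**Figure D3:**
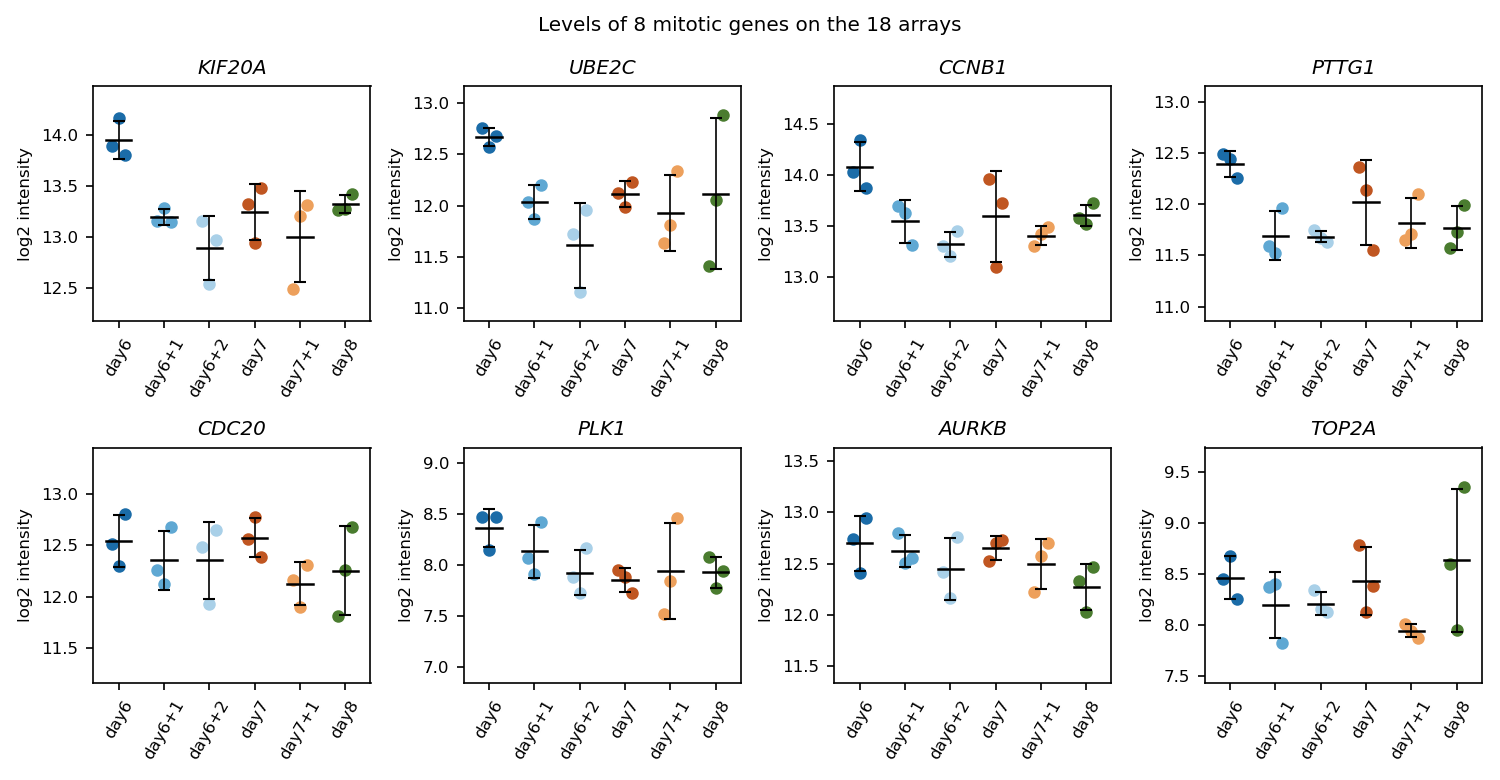
Log2 intensity of 8 mitotic genes on each of the 18 arrays (points), with the group mean (line) and standard deviation (bars, n = 3), each panel on its own range. The group means of KIF20A, UBE2C, CCNB1 and PTTG1 are highest in day6, as are those of PLK1 and AURKB. A day7 or day8 array reaches the lowest day6 array or above for UBE2C, CCNB1 and PTTG1. The groups of CDC20, PLK1, AURKB and TOP2A mostly overlap.

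The other genes of anaphase and protein destruction lay on the same side. PTTG1, securin, which holds separase inactive, read 12.49, 12.44 and 12.25 in day6 and 11.74, 11.67 and 11.64 in day6+2, with no overlap. Its difference was -0.71 (standard error 0.21) and its adjusted p 0.0628 in limma, and its second probe differed by -0.72. It passed the threshold in the authors' table (0.0495), with the mean of its probes (0.043), with only the arrays compared (0.0435) and with the slide as a fixed block (0.0278). ESPL1, separase, which cuts cohesin, had 11.46, 11.24 and 11.19 in day6 and 10.59, 10.50 and 10.83 in day6+2, again without overlap, and a difference of -0.66 that did not pass (adjusted p = 0.211) but did with the slide as a fixed block (adjusted p = 0.0336 in limma). CDCA3, a part of the ligase that removes WEE1, differed by -0.45 (adjusted p = 0.281). CDC20, the activator of the anaphase-promoting complex, was also below 0 but differed least. It read 12.52, 12.30 and 12.80 in day6 and 12.48, 11.93 and 12.65 in day6+2, overlapping groups with a difference of -0.19 (95% interval -0.68 to 0.30). The 5 genes of this role had a median difference of -0.66, and 1 of them passed, or 3 (UBE2C at 0.00594, PTTG1 and ESPL1) with the slide as a fixed block.

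The genes of mitotic entry moved less as a group, with a median difference of -0.15 over 8 genes and 1 call, CCNB1. CCNA2, cyclin A2, read 12.86, 12.81 and 13.15 in day6 and 12.55, 12.24 and 12.38 in day6+2, a difference of -0.55 that did not pass (adjusted p = 0.164), and its dimmer second probe differed by 0.12. PLK1, polo-like kinase 1, which acts from entry to cytokinesis, had 8.47, 8.14 and 8.46 in day6 and 7.88, 7.73 and 8.17 in day6+2. Those groups overlap by 1 array and the difference was -0.44 (adjusted p = 0.401), against -0.09 at its second probe. AURKA, the kinase of the spindle poles, read 12.97, 13.19 and 12.90 against 13.10, 12.57 and 12.98, interleaved, with a difference of -0.14 (95% interval -0.55 to 0.28). CCNB2, CDC25B, CDC25C and NEK2, the second B-type cyclin, both phosphatases that activate the mitotic kinase and the centrosome kinase, lay between -0.16 and 0.02.

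Among the kinetochore genes all 4 were below 0, at a median of -0.27, and none passed. NDC80, which with NUF2 forms the arm that grips microtubules, read 9.80, 9.90 and 9.74 in day6 and 9.29, 9.55 and 9.16 in day6+2 (-0.48, adjusted p = 0.314). CENPF, a large kinetochore protein, also had no overlap, at -0.35, whereas NUF2 and the motor CENPE differed by -0.10 and -0.19. The checkpoint genes had a median of -0.11: BUB1B, the pseudokinase that restrains CDC20, was at -0.36 without overlap, and BUB1, its kinase relative, at 0.19. Of the chromosomal passenger complex, CDCA8 (borealin) differed by -0.45 without overlap, AURKB (its kinase) by -0.25, INCENP (its scaffold) by 0.16 and BIRC5 (survivin) by 0.26. AURKB read 12.74, 12.41 and 12.94 in day6 and 12.42, 12.16 and 12.76 in day6+2. Its probes disagreed in size, with -0.66 and -0.21 at the 2 dimmer ones. None of these genes passed the test.

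The 6 spindle genes were all below 0, at a median of -0.33, with no call. KIF4A, a chromosome-bound kinesin, was at -0.60, KIF11, which pushes the poles apart, at -0.39, and NUSAP1, which bundles microtubules near chromatin, at -0.36, each without overlap. KIFC1, TPX2 and KIF2C, a minus-end motor, an activator of AURKA and a microtubule depolymerase, differed by -0.30, -0.24 and -0.08. Beside KIF20A, the midzone and cytokinesis genes KIF23, PRC1, ANLN and ECT2 differed by -0.45, -0.26, -0.19 and -0.22, of which KIF23 had no overlap. PLK4, which starts centriole duplication, was at 0.11. TOP2A, the topoisomerase that untangles chromatids, read 8.45, 8.68 and 8.26 in day6 and 8.34, 8.16 and 8.13 in day6+2, a difference of -0.25 within the spread (95% interval -0.80 to 0.29).

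Slides, known only from the file names, held arrays of both groups. On slide 1, with 2 arrays of each, 34 of 38 genes were below 0 at a median of -0.27, and KIF20A, UBE2C and CCNB1 differed by -1.17, -1.23 and -0.93. On slide 4, with 1 array of each, 28 were below 0 at a median of -0.20, and the same genes differed by -0.83, -0.72 and -0.42.

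The median difference was as large after the first extra day. Between day6 and day6+1, 33 of 38 genes were below 0 with a median of -0.25, against 52.7% and -0.02 for all features, and 14 lay wholly below day6, against 7.86%. No member passed (0 lower, where 0.385% of all features fell, and 0 higher, where 0.867% rose), while 12 had an unadjusted p under 0.05 in limma, against 9.87% of all features. The smallest p-values belonged to KIF20A (-0.75, adjusted p = 0.101), CCNA2 (-0.68, 0.112) and PTTG1 (-0.70, 0.114). With median centring the median was -0.13 and 23 genes lay below 0. With background subtraction it was -0.26, against -0.13 for all features. On slide 4, the only slide with both groups, 34 genes were below 0 at a median of -0.27. This comparison shares its day6 arrays with that of day6+2.

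Between 1 and 2 extra days no difference was detected. The median was -0.01, 21 of 38 genes were below 0 (49.6% of features), 0 had groups that did not overlap (4.28% of features lower, 4.17% higher), and 0 were called, as for all features (0%). With the replicate number as a block, 0 members and 4 of all features were called. No member had an unadjusted p under 0.05 in limma, against 3.38% of all features, and the smallest were those of UBE2C at -0.42, KIF20A at -0.31 and BUB3 at -0.21. Taken as a line per day of extra culture at equal day of formation, over all 18 arrays, the 3 genes of the day6+2 comparison fell again and 0 rose, against 1.33% and 2.43% of all features. KIF20A fell by 0.47 per day (standard error 0.10, adjusted p = 0.00688), UBE2C by 0.46 (0.12, adjusted p = 0.0312) and CCNB1 by 0.34 (0.09, adjusted p = 0.0297), all in limma. This fit includes the day6 and day6+2 arrays, so it is not a second test. KIF20A passed without any 1 of the 18 arrays, at adjusted p-values of 0.002 to 0.0455. UBE2C passed in 12 of those 18 fits and CCNB1 in 13. UBE2C was lost without each day6 array (0.11, 0.093 and 0.0947 without replicates 1, 2 and 3), without day6+2 replicates 1 and 2 (0.0535 and 0.148) and without day7+1 replicate 1 (0.0535). CCNB1 was lost without each day6 array (0.087, 0.154 and 0.0558) and without day6+2 replicates 1 and 2 (0.0591 and 0.0905), and also with the slide as a fixed block (0.0534), with background subtraction (0.0696) and without replicate 1 of both day6+1 and day7 (0.0561). PTTG1, at -0.32 per day (adjusted p = 0.0591), passed with the slide as a fixed block (0.0318) or as a random block (0.0496), with the mean of its probes (0.0246) and in the authors' table (0.0444). With median centring only KIF20A passed, at -0.43 per day (adjusted p = 0.03).

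In embryos with a cavity at day 7, the set stayed centred near 0 over the extra day on the quantile normalised scale. Day7+1 and day7 differed by -0.00 at the median of the set, 19 of 38 genes were below 0 (49.3% of features) and 0 were called, against 0.0175% of all features. With the slide as a fixed block the median was 0.15. Median centring gave -0.08 with 26 genes below 0, against a median of -0.03 for all features. Background subtraction gave -0.04 with 25 genes below 0, against 0.04 for all features. In 1 gene the unadjusted p in limma was under 0.05, as in 7.15% of features. The smallest p-values were those of KIF2C (-0.40, adjusted p = 0.601), AURKA (-0.39, 0.732) and MAD2L1, a checkpoint protein (0.44, 0.747). Groups did not overlap in 6 genes that were lower (4.84% of features) and 1 that was higher (5.81%). AURKA read 12.73, 12.77 and 13.25 in day7 and 12.44, 12.45 and 12.67 in day7+1, and CDC20 12.57, 12.77 and 12.39 against 12.17, 11.90 and 12.31. TOP2A had 8.78, 8.13 and 8.38 in day7 and 8.01, 7.95 and 7.88 in day7+1. In each of these 3 the day7+1 arrays were all lower, and none passed. The test of the difference between both extra-day effects, the interaction, called 0 members and 0.00584% of all features, with 1 member at an unadjusted p under 0.05 in limma (6.73% of features). Its median over the set was 0.32, with 9 of 38 genes below 0 where 47.9% of features were, but 0.07 with median centring. NDC80 had the smallest p (0.73, adjusted p = 0.632), then CENPF (0.55, 0.752) and ESPL1 (0.71, 0.769), so that a difference between the early and the later embryos in their response to a further day was not shown for any gene.

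Embryos that formed their cavity later were compared with day6 on the day of formation. The difference of day7 from day6 was below 0 in 34 of 38 genes (52% of features), at a median of -0.37 against -0.01 for all features, and 12 lay wholly below day6 (7.15% of features). No gene was called, where 0.289% of features were, and 12 had an unadjusted p under 0.05 in limma (9.77% of features). NDC80 read 9.48, 8.78 and 8.83 in day7, all below its day6 arrays, and differed by -0.78 (adjusted p = 0.135). KIF20A, at 13.32, 12.94 and 13.47, differed by -0.70 and CCNA2, at 12.41, 12.22 and 12.27, by -0.64 (adjusted p = 0.201 for each). With median centring the median was -0.24. With background subtraction it was -0.33, against -0.046 for all features.

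The difference of day8 from day6 was below 0 in 32 of 38 genes (52.4% of features), at a median of -0.29 against -0.02, and 8 lay wholly below (9.46% of features). No gene was called, where 1.48% of features were, and 8 had an unadjusted p under 0.05 in limma (13% of features). CDCA3 read 11.32, 11.33 and 11.04 in day6 and 10.51, 10.28 and 10.94 in day8, and differed by -0.66 (adjusted p = 0.0849). PTTG1, at 11.58, 11.73 and 11.99 in day8, differed by -0.63 (0.137, and by 0.12 with the slide as a fixed block) and KIF20A, at 13.27, 13.28 and 13.42, by -0.63 (0.158). Replicate 3 of day8 stood above its group for several genes, with UBE2C at 12.88 against 11.41 and 12.06, TOP2A at 9.35 against 8.60 and 7.95, and NDC80 at 10.22 against 9.62 and 9.58. Without it CDCA3 (-0.84, adjusted p = 0.0317) and ESPL1 (-0.95, 0.0391) passed in limma, 2 of 38. Calls over all features rose from 507 to 713 in that fit. With median centring the median was -0.13, and with the slide as a fixed block -0.17. With background subtraction it was -0.28, against -0.089 for all features. No slide held arrays of day6 together with day7 or day8, so that those comparisons have no value within a slide. These day6 arrays are the same as those of the comparisons with extra culture.

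**Figure D4:**
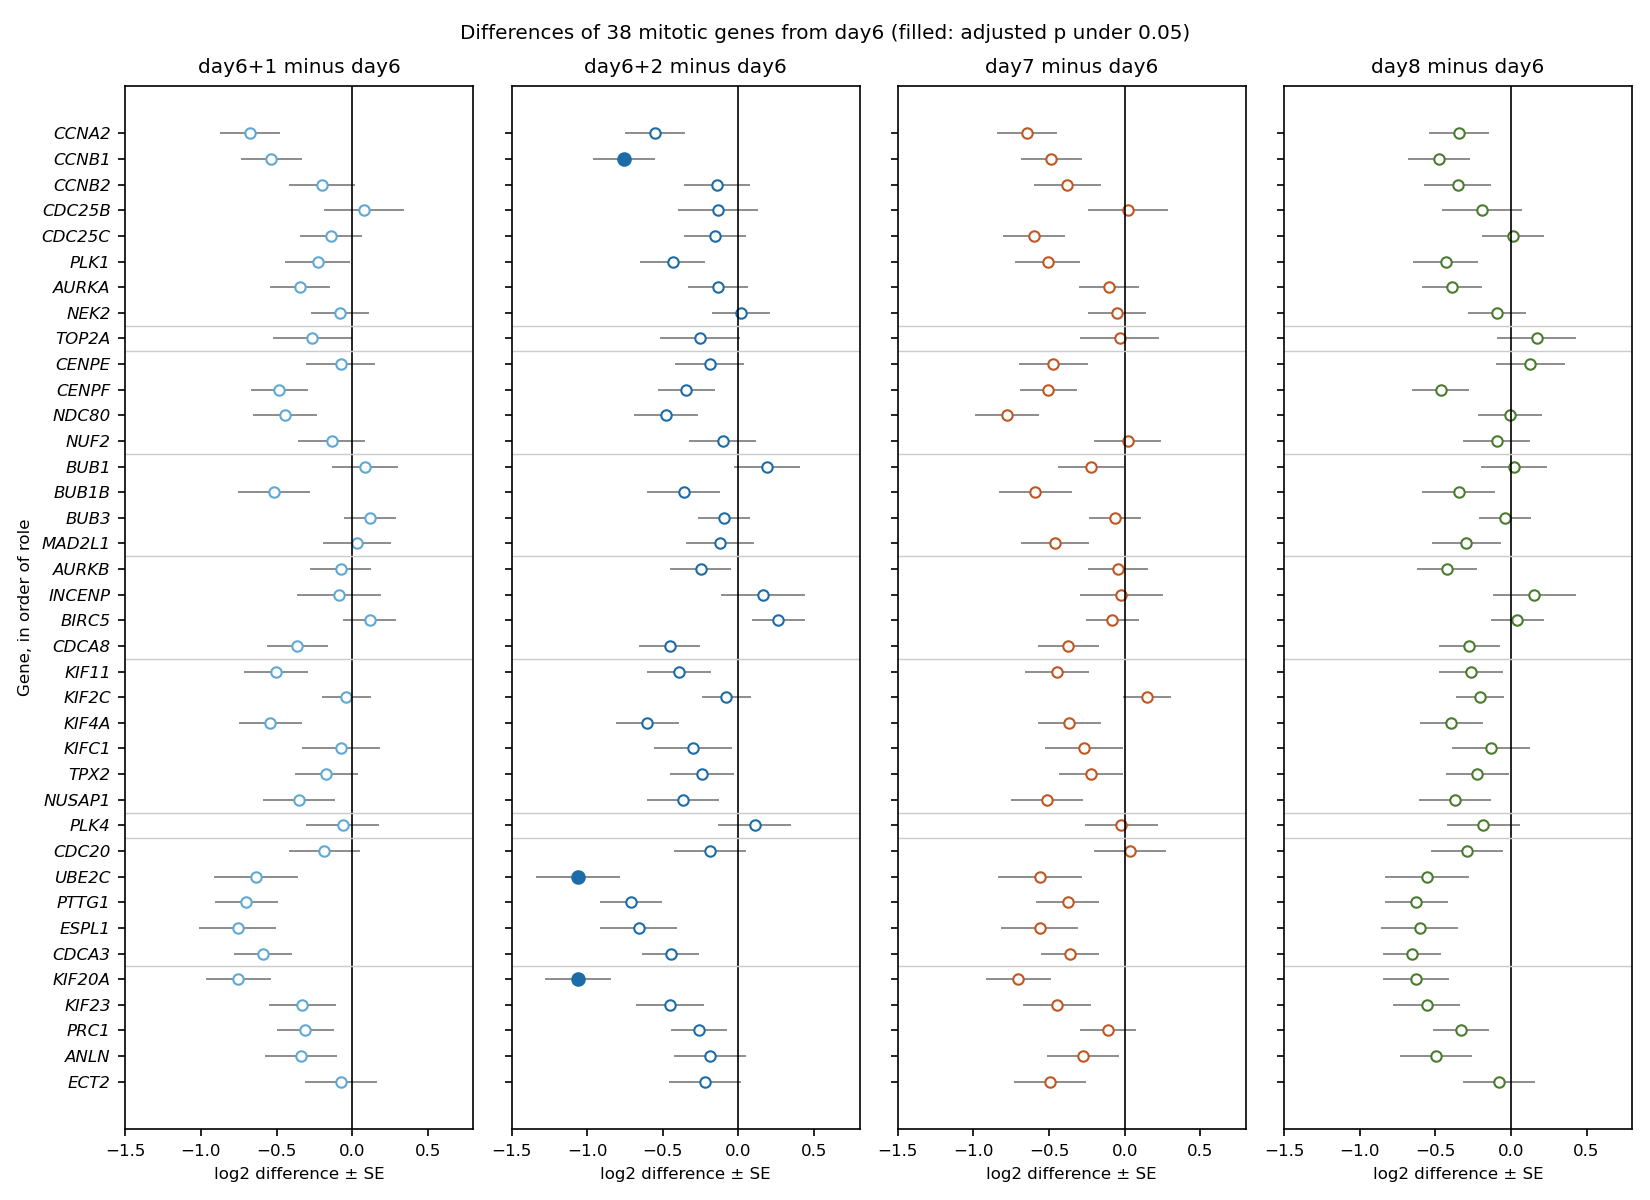
Log2 difference from day6 (points) with its standard error (bars) for the 38 mitotic genes in the order of their roles, in the 4 comparisons that share the day6 arrays. Filled points passed an adjusted p of 0.05, namely CCNB1, UBE2C and KIF20A in day6+2 alone, and most points lie left of 0 in all 4 panels.

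Comparisons without day6 had medians near 0. Day8 and day7 differed by 0.03 at the median with 15 of 38 genes below 0 (49.8% of features). None was called (0.0175% of features), and 4 had an unadjusted p under 0.05 in limma (9.12%). NDC80 was higher in all 3 day8 arrays than in day7 (0.77, adjusted p = 0.172), as was CDC25C, at 10.12, 10.45 and 10.07 against 9.76, 9.51 and 9.53 (0.61, 0.283), and the third smallest p was that of CENPE (0.60, 0.384). Without replicate 1 of day7, NDC80 passed at 1.00 (adjusted p = 0.0291 in limma). Calls over all features rose from 6 to 335 in that fit. At equal day of collection, day7 and day6+1 differed by 0.03 at the median, with 18 genes below 0 (50.2% of features) and 0 called, as for all features (0%), and 2 members with an unadjusted p under 0.05 in limma (5.25% of features). Day8 and day6+2 differed by 0.01, with 18 below 0 (51.2% of features), 0 called (0.572%) and 1 with an unadjusted p under 0.05 in limma (10.5%). With the slide as a fixed block the median was 0.19 in day8 minus day7 and 0.14 in day8 minus day6+2. The smallest p-values were those of CDC25C (-0.46), MAD2L1 (-0.49) and ECT2 (-0.42) on day 7, and of NDC80 (0.47), KIF20A (0.43) and UBE2C (0.50) on day 8. The line per day of later formation, in contrast, was fitted over all 18 arrays, those of day6 included, so it is not apart from day6. Its median slope was -0.13 with 35 of 38 genes below 0 (51.5% of features) and 0 called (0.251%), while 7 had an unadjusted p under 0.05 in limma (11.3%). With the slide as a fixed block the slope was -0.036 at the median and 23 genes were below 0. CDCA3 (-0.26), KIF20A (-0.29) and CCNB1 (-0.22) had the smallest p-values there, with adjusted values of 0.224 to 0.337 in limma.

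Bright features as a whole had medians nearer 0, on the quantile normalised scale. Among the 6347 features with a mean level above 10, a cut chosen after the data were seen, the median differences from day6 were -0.03 in day6+1 and -0.05 in each of day6+2, day7 and day8. Part of the mitotic set lay below this cut (lowest mean level 7.04), so brightness was not matched.

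Calls in other lists of cell division genes stand beside those of all features, of which 1.28% fell and 2.31% rose in day6+2 minus day6. In day6+2 against day6, 0 of 26 measured genes of mitotic kinase control and cell cycle transcription passed, with a median difference of -0.07. The anaphase-promoting complex (14 genes, median -0.16) and cohesin and condensin (18 genes, median -0.14) also had 0 calls. Of 28 further kinetochore genes CENPM, a subunit of the inner kinetochore, fell by 0.90 (adjusted p = 0.0246). Of 32 further spindle, centrosome and midbody genes KIF15, a kinesin that works beside KIF11, fell by 1.12 (0.0122) and DEPDC1 rose by 0.71 (0.0381), and KIF22, a chromosome-bound kinesin, fell by 0.43 per day in the trend (0.0164). Of 33 DNA replication genes GINS1, a subunit of the replicative helicase, fell by 0.85 (0.0142). Of the 33, 26 were below 0, where 52.9% of all features were, at a median of -0.13.

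Genes that restrain the cycle moved in both directions. Of 17 measured inhibitors and growth arrest genes, BTG2 rose by 0.91 (adjusted p = 0.0306) and BTG1, its antiproliferative relative, fell by 0.87 (0.00698) in day6+2, at a median of 0.11 for the list. BTG1 was higher again in day8 than in day6+2, by 0.86 (0.0408). In the trend with extra culture 1.33% of all features fell and 2.43% rose. There BTG2 rose by 0.44 per day (0.0227) and CCNG1 by 0.45 (0.0348). CDKN2D, an inhibitor of the G1 kinases, fell by 0.34 per day (0.0246). Of 9 G1 genes CDK7, the kinase that activates other cyclin-dependent kinases, rose by 0.32 per day (0.0249). Each of these p-values came from limma.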

How the data were processed

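Per the file headers, each array was scanned at 532 nm, and the deposited files give the median foreground and local background of each spot as intensity, neither corrected nor scaled. The authors' deposited table is in log2 units. Comparison with the scans showed it to be log2 of foreground minus background after quantile normalisation (94.5% of values within 0.01). R 3.2.4 and limma 3.28.5 are named for 9 of 18 samples, per the submitters' processing notes. Of 43794 probes, 21790 had 1 gene symbol, 0 several and 22004 none.

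The scans were reprocessed in limma 3.58.1 under R 4.3.3, with normexp background correction (offset 50) and then quantile normalisation. Probes above the 95th percentile of the negative controls on 3 or more arrays were kept (39986, 91.3%), and of several probes for a gene the brightest was used. The 9 comparisons and the interaction came from a model with a mean per group over all 18 arrays (12 residual degrees of freedom), and both trends from a model with day of formation and extra days as numbers. With 3 arrays a group, their number limits the precision. The fit was also run on simulated levels with independent noise around each feature's mean. Those had no slide or replicate structure, so that run cannot show how the fit behaves where slides or replicates matter.

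The members, roles and gene lists were chosen with earlier results of these data known. Named genes are those past the threshold in a comparison, or the 3 smallest p-values where fewer passed. Values on every array are given for genes past the threshold and for CCNB1, CDC20, PLK1, AURKA, AURKB and TOP2A, and for some further genes chosen after their values were seen. From other lists, up to 4 genes past the threshold are named. Alternatives covered background, scaling, probe choice, the authors' table, slide, replicate number and each array left out. Medians, counts below 0, ranks of the group means and the set of bright features were added after the data were seen. Same-numbered arrays deviated together, at correlations of 0.106 or more in every pair, in day7 with day6+1 and in day6+2 with day6+1. The printed tests do not use this pairing. They come from the fit without a block for replicate number, and the fit with it is given where it moved a count. Every replicate 3 was on slide 4 or 5 and the other replicates on slides 1 to 3, so replicate number partly follows the slide. The labels do not say what the number marks. No DNA or protein sequence is printed, and no genome coordinates are used here.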

Additional observations from a re-analysis of the deposited data

How the results depend on the processing

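The slide as a fixed block moved the median difference of the mitotic genes to -0.33 in day6+1 minus day6, -0.17 in day8 minus day6, 0.15 in day7+1 minus day7, 0.19 in day8 minus day7, 0.14 in day8 minus day6+2, 0.46 in the interaction and -0.036 in the formation trend. It also reversed PTTG1 in day8 minus day6, to 0.12. Median centring gave -0.13, -0.10, -0.24 and -0.13 in day6+1, day6+2, day7 and day8 minus day6 and 0.067 in the interaction, and left 1 gene called in day6+2 minus day6 and 1 in the extra culture trend. Background subtraction gave 0.23 in the interaction and 1 call in day6+2 minus day6. It put the median of all features at -0.13, -0.10, -0.046 and -0.089 in day6+1, day6+2, day7 and day8 minus day6. In the interaction that median was 0.16. The mean of a gene's probes gave -0.28 in day7 minus day6, and slide 3 alone -0.058 in day7 minus day6+1. Leaving out replicate 1 of both day6+1 and day7 gave 2 calls in day8 minus day7 (CENPE and NDC80), while calls over all features rose from 6 to 549. The cause of these changes was not tested.

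With 1 array left out, calls ran from 0 to 2 in day6+2 minus day6, 1 to 4 in the extra culture trend, 0 to 2 in day8 minus day6 and 0 to 1 in day8 minus day7, and stayed at 0 in the other 8 results. Calls over all features ran from 695 to 1002, 672 to 1391, 42 to 713 and 0 to 335, in the same order. The medians of the set ran from -0.44 to -0.28 in day7 minus day6, -0.059 to 0.045 in day7 minus day6+1, -0.087 to 0.013 in day7+1 minus day7 and 0.21 to 0.36 in the interaction. Of 702 values of named genes under the alternatives, 665 kept their direction and side of the threshold. Most of the 702 belong to genes not called in the main fit, which kept their side by staying uncalled. The count therefore says little about the called genes. Among the other values, 32 were called results that lost the call, 4 gained a call and 1 reversed.

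The replicate block left 3 members called in day6+2 minus day6 (KIF20A, adjusted p = 0.00539 in limma) and changed no call of a named member. It moved the calls over all features from 99 to 187 in day7 minus day6, from 429 to 648 in day6+1 minus day6, from 507 to 912 in day8 minus day6, from 86 to 175 in the formation trend, from 6 to 18 in day7+1 minus day7, from 196 to 463 in day8 minus day6+2, from 2 to 51 in the interaction and from 0 to 4 in day6+2 minus day6+1. The slide block gave 29, 4, 1 and 0 there for day6+1, day7, day8 and the formation trend, 0 in day7+1 minus day7 and in the interaction, 1 in day8 minus day6+2 and 159 (from 6) in day8 minus day7. In day6+2 minus day6 it gave 1533 (from 1229) and in the extra culture trend 1477 (from 1288). Signal over background limits ANLN and INCENP most.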
